A study of Mus musculus with 8 samples.

Results

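The genes described here are 9 homeobox genes that mark the forebrain, the midbrain and the border between midbrain and hindbrain: Otx1, Otx2, Six3, Emx2, Rax, Hesx1, En1, En2 and Gbx2. They were taken as every non-control probe set whose platform annotation names 1 of these genes alone, which gave 11 probe sets out of 45037, with 3 for Six3 and 1 for each of the other genes. The samples were mouse embryoid bodies, aggregates that embryonic stem cells form in suspension, each measured on 1 Affymetrix Mouse430_2 array. A group of 4 (replicates 5 to 8) received 500 nM retinoic acid and 1 uM of an Hh agonist, HH-Ag, and another 4 (replicates 1 to 4) received 500 nM retinoic acid alone, in each case after 2 days in suspension. All labelled samples, those without agonist included, were of the YFP3.1 stem cell line with a constitutively expressed, FLAG-tagged Gli1, and were collected at 3 days of differentiation. The labels of agonist replicate 7 give neither line nor time, and its group was taken from its title. Separate cultures are not described for the biological replicates the design names, so a p-value here reflects only how these 8 samples varied. In bulk samples of this kind, fewer cells that express a gene and less of its RNA per cell cannot be told apart.

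The head end of the neural tube is divided by homeobox transcription factors. Otx2, helped by Otx1, is needed for forebrain and midbrain, while Gbx2 is needed for the anterior hindbrain, and the Otx2 and Gbx2 territories repress each other where they meet. En1 and En2 are expressed on both sides of that border. Six3, Hesx1 and Rax act in the anterior forebrain and eye field, and Emx2 in the dorsal forebrain. Retinoic acid is known to turn neural tissue toward hindbrain and spinal cord fates and to hold forebrain and midbrain genes down. Hh signalling patterns the neural tube from ventral to dorsal.

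The sequences just upstream of Gbx2 and Otx2 are shown because these genes set the midbrain and hindbrain border against each other and Gbx2 was the tested member whose groups did not overlap. Both are from RefSeq (GRCm38.p6), 250 bases before an annotated start, on the minus strand, at chr1:89931177-89931426 for Gbx2 and chr14:48667645-48667894 for Otx2. Capitals mark a match to the homeodomain core TAATTA, which reads the same on both strands.
Gbx2: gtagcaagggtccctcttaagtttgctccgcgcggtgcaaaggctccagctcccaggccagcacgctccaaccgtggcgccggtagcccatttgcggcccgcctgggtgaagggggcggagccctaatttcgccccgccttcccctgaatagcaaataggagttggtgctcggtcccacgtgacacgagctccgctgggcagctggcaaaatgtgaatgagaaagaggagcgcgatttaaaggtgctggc
Otx2: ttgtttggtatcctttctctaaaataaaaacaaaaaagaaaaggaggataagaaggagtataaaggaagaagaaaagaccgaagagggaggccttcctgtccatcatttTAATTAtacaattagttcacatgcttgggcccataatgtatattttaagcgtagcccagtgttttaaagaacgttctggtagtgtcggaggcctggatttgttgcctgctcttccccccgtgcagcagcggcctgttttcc
The table of upstream windows matched 6 of the 9 genes with 9 windows, 4 of them for Otx2. The search covered both strands for the Gli core GGTGGTC, the retinoic acid receptor half-site AGGTCA, the Otx site TAATCC and TAATTA, and no matches of different motifs overlapped. TAATTA was in 2 of the 9 windows, both of Otx2, and TAATCC in 1, also of Otx2. Neither GGTGGTC nor AGGTCA was in any of the 9. Over all 32851 windows of that length TAATTA was found in 4.84%, TAATCC in 6.25%, GGTGGTC in 2.34% and AGGTCA in 14.0%. In the Otx2 window shown, the match runs from 141 to 136 bases before the start. A match is a stretch of letters and was not tested as a binding site.

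The comparison asks whether these head genes differed when the Hh agonist was added to retinoic acid treated bodies. Labelled samples of both groups carried the FLAG-tagged Gli1, so the contrast is of added agonist on that background. Ptch1, the Hh receptor and a target of the pathway, rose, with 515 ± 91.2 with the agonist and 288 ± 43.7 with retinoic acid alone by its brightest probe set (SD, n = 4 each, limma adjusted p = 0.000253). No member passed the test. Gbx2 had a 1.20-fold higher value with the agonist that did not pass after adjustment, and Hesx1, Rax and the bright Six3 probe set differed by less than 1.10-fold in either direction. Otx1, Otx2, Emx2, En1 and En2 were dim in both groups. No sample was without retinoic acid, so its own effect on these genes was not tested. The test was limma on log2(intensity + 16) with Benjamini-Hochberg adjustment over all tested probe sets. The test left out probe sets whose mean log2 value over the 8 arrays fell below the 40th percentile, equal to an intensity of 15.1. Of the 11 member probe sets 4 were tested and 7 were too dim. Of the 4 tested 0 passed an adjusted p of 0.05, where 1.87% of all 27022 tested probe sets passed (1.14% higher and 0.733% lower), and 1 had an unadjusted limma p under 0.05, where 12.2% of all tested did. With no filter 0 of 11 passed, where 1.04% of all 45037 did, and again 1 had an unadjusted p under 0.05, against 9.64% of all. Fold changes are on the log2(intensity + 16) scale and understate those of dim genes.

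Gbx2, the homeobox gene of the anterior hindbrain and also a gene active in embryonic stem cells, had intensities of 65.0, 70.5, 70.04 and 71.8 in agonist replicates 5 to 8. With retinoic acid alone, replicates 1 to 4 had 52.3, 59.7, 53.4 and 55.4. All 4 agonist arrays lay above all 4 arrays without agonist. The means were 69.3 ± 2.96 with the agonist and 55.2 ± 3.29 with retinoic acid alone (SD, n = 4 each). The log2 change was 0.26 (SE 0.090, 95% interval 0.071 to 0.45), and limma's adjusted p was 0.204. In fold terms the interval ran from 1.05 to 1.37. Its groups did not overlap (exact permutation test, two-sided, p = 0.0286, the smallest that 4 against 4 arrays can give), as was the case for 7.06% of all tested probe sets (3.56% with the agonist group higher). By unadjusted p it ranked 1302 of 27022.

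**Figure D1:**
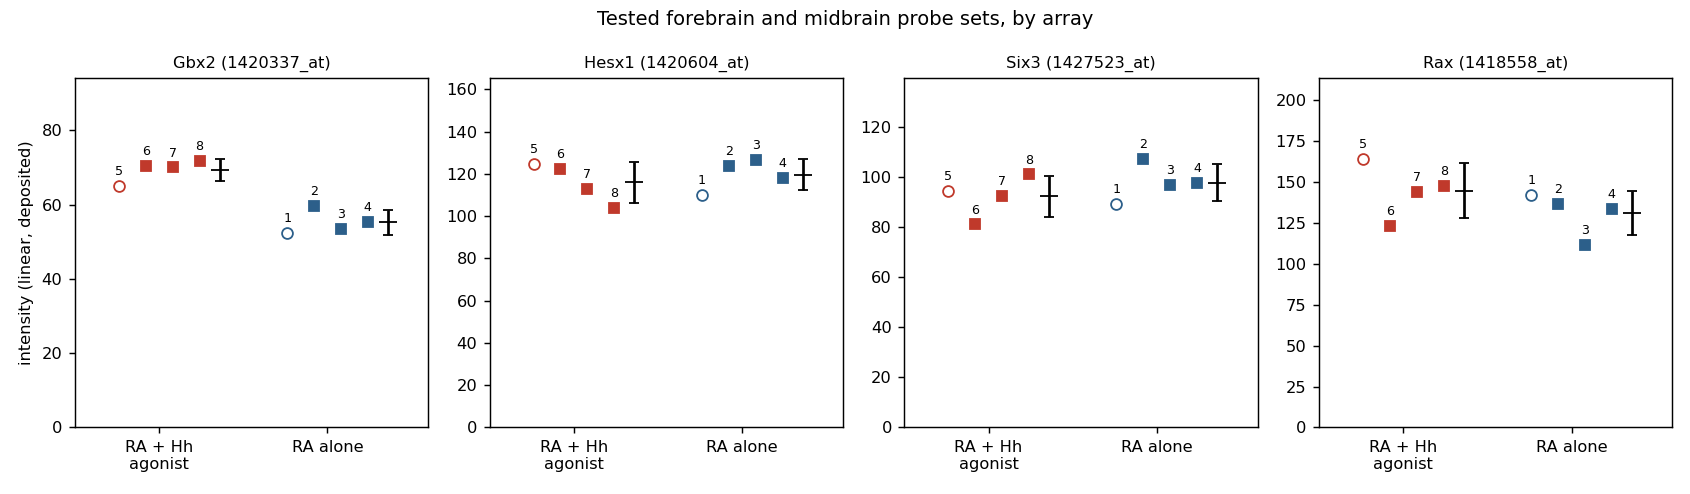
Intensity (linear, as deposited) of the 4 tested member probe sets on each array, with the replicate number above each point. Open circles were hybridised on the first day and filled squares on the second, and the bar at the right of each group is its mean ± SD (n = 4). For Gbx2 the agonist arrays (65.0 to 71.8) lie above the arrays with retinoic acid alone (52.3 to 59.7), while the groups overlap in the other 3 panels.

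The Gbx2 difference was of similar size on both hybridisation days. On the first day, which held agonist replicate 5 and retinoic acid replicate 1 on the same fluidics station, it was 0.25 on the log2 scale, and on the second day, with 3 arrays of each group, it was 0.27. The second day alone gave an adjusted p of 0.403 in limma. On that day the agonist arrays were all run on the second station and the others on the first, so station and group cannot be told apart there. On the first station alone, with 1 agonist array against 4, the difference was 0.19 (limma adjusted p = 0.811, assuming that the lone array varies like the others).

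Hesx1 encodes a homeodomain repressor of the anterior forebrain and pituitary, and is also expressed in embryonic stem cells and epiblast. Its intensities were 125, 122, 113 and 104 in agonist replicates 5 to 8, and 110.1, 124, 127 and 118 in replicates 1 to 4 with retinoic acid alone. The lowest value was that of agonist replicate 8, and the other 3 agonist arrays lay within the range of the arrays without agonist. The group means were 116 ± 9.59 with the agonist and 119.7 ± 7.35 with retinoic acid alone (SD, n = 4 each). The log2 change was -0.041 (SE 0.085, limma adjusted p = 0.900), with a 95% interval of -0.22 to 0.14, or a fold of 0.859 to 1.10.

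Rax, the eye field homeobox gene, had 164, 123, 144 and 148 in agonist replicates 5 to 8 and 142, 137, 112 and 134 in replicates 1 to 4 with retinoic acid alone. Agonist replicates 5, 7 and 8 were higher than every array without agonist, and replicate 6 was within their range. The means were 145 ± 16.9 with the agonist and 131 ± 13.4 with retinoic acid alone (SD, n = 4 each). The log2 change was 0.13 (SE 0.094, limma adjusted p = 0.657), and its 95% interval was -0.072 to 0.33, or a fold of 0.951 to 1.25. It was 0.060 without retinoic acid replicate 3, 0.070 without agonist replicate 5 and 0.30 on the first fluidics station alone. Rax has a single probe set here, and whether its signal comes from the Rax transcript was not tested.

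Six3, a gene of the most anterior forebrain and eye field, is read by 3 probe sets that did not give the same picture of its level. Probe set 1427523_at, designed on another database sequence than the other 2, had 94.3, 81.1, 92.4 and 101 in agonist replicates 5 to 8 and 89.2, 107, 96.9 and 97.6 in replicates 1 to 4 with retinoic acid alone. The groups overlapped, with agonist replicate 6 lowest and retinoic acid replicate 2 highest. Its log2 change was -0.073 (SE 0.090, 95% interval -0.26 to 0.12, limma adjusted p = 0.809), and it was -0.022 without agonist replicate 6 and -0.034 without retinoic acid replicate 2. The other Six3 probe sets, which share a design sequence, lay under 15.1 on every array. Probe set 1426637_a_at ranged from 0.686 to 14.5 with the agonist and from 1.52 to 13.4 with retinoic acid alone, and 1426638_at from 2.48 to 11.0 and from 4.46 to 11.4 in the same order of groups. None of the 3 had groups that did not overlap. Which of the 3 reads the Six3 transcript was not tested, so its level is uncertain in both groups. Six3os1, annotated as an opposite-strand transcript of Six3, was also dim, with 12.2 ± 7.34 with the agonist and 13.1 ± 2.67 with retinoic acid alone (SD, n = 4 each).

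Otx2, the defining gene of forebrain and midbrain, was among the dim members. It had 19.3, 7.51, 18.4 and 11.2 in agonist replicates 5 to 8 and 9.27, 18.6, 16.1 and 9.87 in replicates 1 to 4 with retinoic acid alone. Each group held 2 arrays above the filter level and 2 below it. The groups overlapped, with agonist replicate 5 highest and agonist replicate 6 lowest of all arrays. Without a filter the log2 change was 0.024 (SE 0.16, 95% interval -0.32 to 0.36, limma adjusted p = 0.985). Its sign was opposite on the 2 hybridisation days, with 0.48 on the first and -0.13 on the second.

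Otx1, the partner of Otx2 in forebrain and midbrain, had 10.5, 3.42, 0.711 and 4.18 in agonist replicates 5 to 8 and 6.72, 18.5, 10.4 and 5.69 in replicates 1 to 4 with retinoic acid alone. Of the agonist arrays 3 lay below all arrays without agonist, and replicate 5 lay within their range. Without a filter the log2 change was -0.34 (SE 0.17, 95% interval -0.70 to 0.017, limma adjusted p = 0.551). All but 1 of the 8 values were under 15.1. The difference was -0.53 on the second hybridisation day and 0.22 on the first.

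Emx2, a gene of the dorsal forebrain, had 3.32 to 4.90 with the agonist and 4.35 to 11.1 with retinoic acid alone. The overlap came from retinoic acid replicate 2, whose 4.35 lay among the agonist values. The log2 change without a filter was -0.20 (SE 0.14, limma adjusted p = 0.738).

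The engrailed genes mark the midbrain and anterior hindbrain. En2 had 8.73, 12.2, 13.4 and 10.5 in agonist replicates 5 to 8 and 13.4, 14.4, 14.95 and 16.2 in replicates 1 to 4 with retinoic acid alone. Its groups did not overlap, as for 5.60% of all 45037 probe sets, but the highest agonist value (13.353) and the lowest value without agonist (13.382) were nearly equal. The exact permutation test gave 0.0286, and limma without a filter gave a log2 change of -0.18 (SE 0.14, adjusted p = 0.750). En1 had 4.34 to 11.0 with the agonist and 2.53 to 12.2 with retinoic acid alone, with a log2 change of -0.00060 (SE 0.16, limma adjusted p = 1.00 without a filter).

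**Figure D2:**
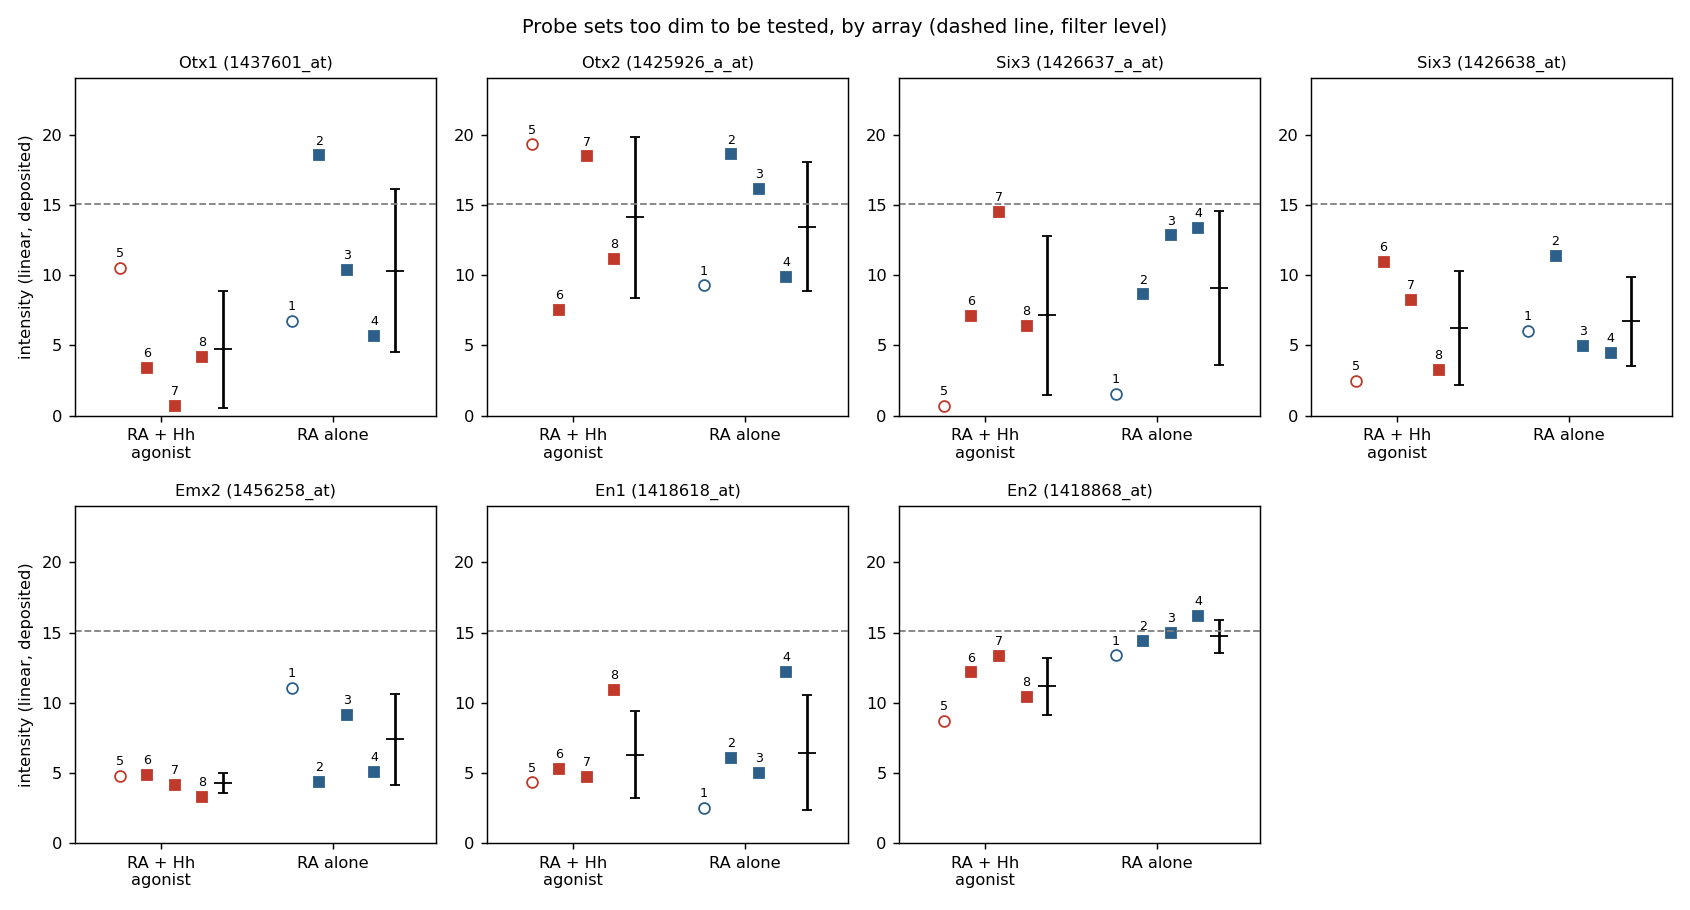
Intensity (linear, as deposited) of the 7 member probe sets that were too dim to be tested, on each array, with the replicate number above each point, symbols for the hybridisation day (open circles first, filled squares second) and the mean ± SD (n = 4) beside each group. The dashed line is the filter level of 15.1, and the values run from 0.686 to 19.3.

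Over all 56 values of the 7 dim probe sets the median was 8.44. Of these probe sets 6 had a lower mean log2 value with the agonist and 1 a higher one, and all 7 intervals included 0. The lower ones included En1, at -0.00060, and the dim Six3 probe sets, which share a design sequence. Over all 11 member probe sets the median log2 change was -0.041, beside 0.00049 over all non-control probe sets. Over the 4 tested it was 0.043, beside -0.0047 over all tested probe sets. All 11 of the 95% intervals lay within a 2-fold change on the log2(intensity + 16) scale. For dim probe sets that scale limits how large a change can appear. With 1 added in place of 16, the change was -1.17 for Otx1, -0.59 for Emx2, -0.41 for Six3 1426637_a_at and -0.38 for En2. It was -0.20 for Six3 1426638_at, 0.032 for Otx2 and 0.054 for En1, and none of the 7 passed.

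**Figure D3:**
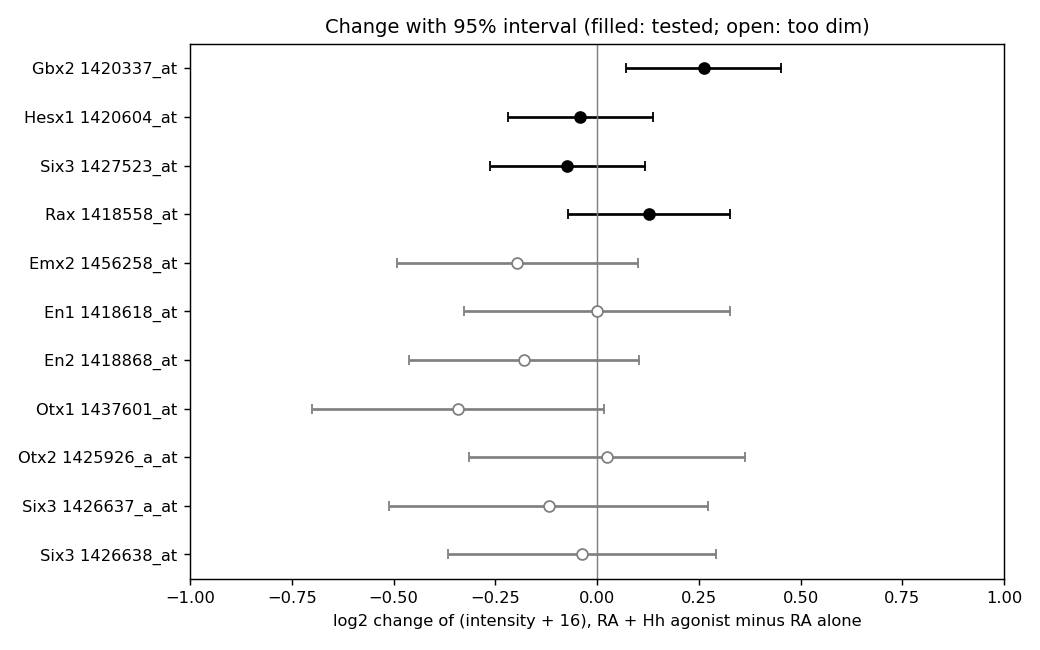
Log2 change of each member probe set (agonist with retinoic acid minus retinoic acid alone, on log2 of intensity + 16) with its 95% interval from limma, filled where tested and open where too dim. The interval of Gbx2 (0.071 to 0.45) excludes 0 before adjustment, and those of the other 10 probe sets include it.

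**Figure D4:**
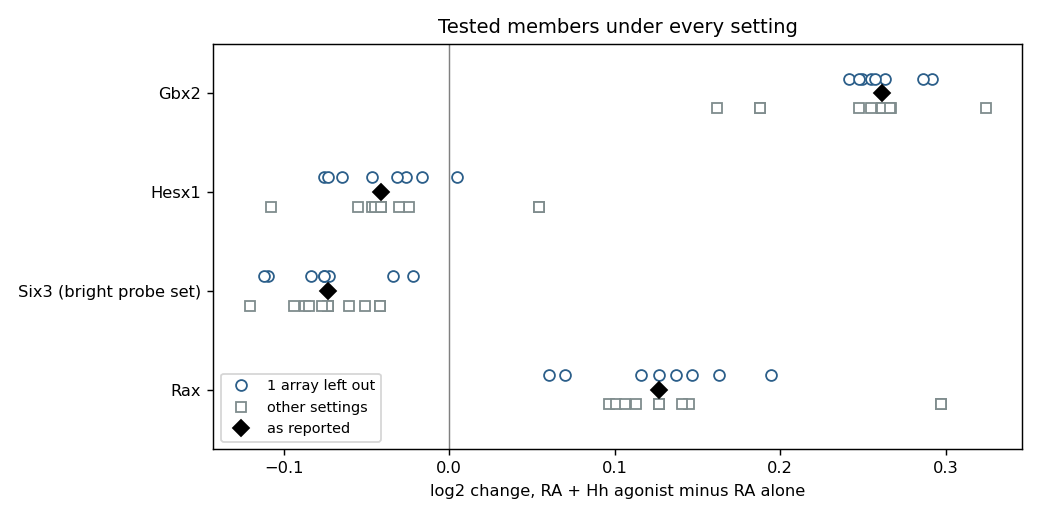
Log2 change of the 4 tested members as reported (diamonds), with each array left out in turn (circles) and under every other setting (squares). Gbx2 stays between 0.16 and 0.32, Rax and Six3 keep their sign, and Hesx1 lies on both sides of 0.

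By the rule for likeness, the 3 brightest members were set against 13674 other genes by Pearson's r over the 8 arrays after removing group means. The genes most like Rax were Pqlc3 (r = 0.98), 5430416N02Rik (r = 0.98) and Rnf220 (r = 0.98). Hesx1 was most like Fcrla (r = 0.98), Cirbp (r = 0.97) and Otp (r = 0.96), and the bright Six3 probe set most like Mrs2 (r = 0.98), Irak3 (r = 0.95) and Brat1 (r = 0.95). These are the highest of many values over 8 arrays that share the same spread, and they are given as a description.

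Other genes of head patterning are given by list. Of 11 tested forebrain genes beyond the members 0 passed in limma (Foxd1 alone had an unadjusted p under 0.05 and an exact permutation p under 0.05), with a median log2 change of 0.043 beside -0.0059 over all tested genes, where 2.18% of 13675 genes passed by their brightest probe set. Among these were Fezf2, a forebrain zinc finger gene (86.4 ± 9.01 with the agonist and 80.7 ± 7.63 with retinoic acid alone), Tcf7l2, a Wnt effector (117 ± 13.3 and 115 ± 13.2 in the same order) and Sim1, a hypothalamic gene (98.8 ± 12.2 and 86.6 ± 9.74, all SD, n = 4). Of 13 tested genes of the isthmus, the signalling centre between midbrain and hindbrain, and of the midbrain 0 passed in limma, with a median of 0.041 (Spry1 and Sp5 had an unadjusted p under 0.05, and Spry1 and Pou3f4 an exact permutation p under 0.05). Pax5 and Pax8, paired-box genes of that region, had adjusted p of 0.736 and 0.927. Fgf8 and Wnt1, the main signals of the isthmus, were too dim to be tested, with 6.76 ± 2.15 and 10.1 ± 3.91 with the agonist and 4.21 ± 4.18 and 8.21 ± 1.27 with retinoic acid alone (SD, n = 4 each). Of 3 tested eye field genes Pax6 fell, at 11.6 ± 3.58 with the agonist and 41.3 ± 5.71 with retinoic acid alone (log2 change -1.06, limma adjusted p = 9.80e-05). Pax6 is also a gene of hindbrain and spinal cord progenitors.

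Some Hox genes of the hindbrain and trunk, on the posterior side of Gbx2, rose with the agonist. As for Gbx2, fluidics station and group could mostly not be told apart. Over all lists 10 genes were called with station as a block, against 16 without it. Of 9 tested hindbrain and rostral Hox genes 2 rose and 0 fell, with a median log2 change of 0.16, beside 1.31% of all tested genes that rose and 0.870% that fell. Hoxb4 had 185 ± 4.08 with the agonist and 110.2 ± 18.4 with retinoic acid alone (SD, n = 4 each, limma adjusted p = 0.000429), and Hoxd3 122 ± 16.7 and 82.6 ± 11.8 in the same order (limma adjusted p = 0.0183). In all 5 of the 9 had an unadjusted limma p under 0.05, beside 12.2% of all tested probe sets. The other 3 did not pass after adjustment, with log2 changes of 0.34 for Hoxb3, 0.19 for Hoxc4 and -0.47 for Hoxb1, a hindbrain gene that responds directly to retinoic acid. Of these Hoxc4 had groups that did not overlap, as for 7.06% of all tested probe sets. Gbx1, the closest relative of Gbx2 in the list, had 74.5 ± 4.19 with the agonist and 78.6 ± 9.12 with retinoic acid alone (limma adjusted p = 0.860). Of 9 tested caudal Hox and Cdx genes Hoxb5 alone passed and rose, with a median of -0.036 for the list. Hoxc6 and Hoxc5 also had an unadjusted p under 0.05, with log2 changes of 0.23 and -0.23, and did not pass. For both the groups did not overlap either. Hoxc8, too dim to be tested, had 2.66 ± 2.00 with the agonist and 9.09 ± 2.27 with retinoic acid alone (SD, n = 4 each). Its groups did not overlap, as for 5.60% of all non-control probe sets, and its log2 change was -0.43 (limma adjusted p = 0.230 without a filter). Hoxb5os, annotated on the opposite strand at Hoxb5, fell, with 63.9 ± 5.21 with the agonist and 212 ± 65.7 with retinoic acid alone (SD, n = 4 each, limma adjusted p = 4.20e-06). Of 9 tested head organizer genes and Wnt inhibitors, which protect the head from posterior signals, Sfrp2 fell (76.9 ± 12.2 with the agonist and 340.4 ± 52.0 with retinoic acid alone, SD, n = 4 each) and Sfrp1 rose. Whether the Hox or Sfrp differences bear on the Gbx2 values was not tested.

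**Figure D5:**
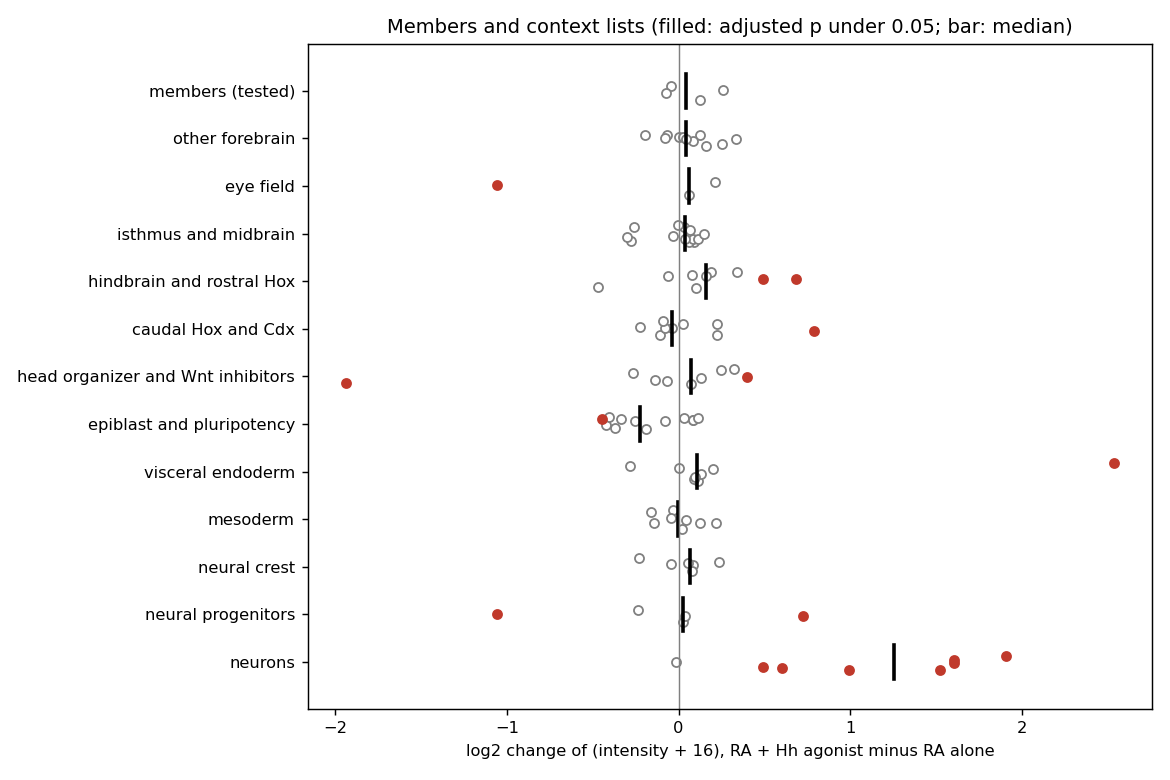
Log2 change (agonist with retinoic acid minus retinoic acid alone) of the tested members and of the brightest tested probe set of each gene in 12 context lists, 1 point per gene, filled where limma's adjusted p was under 0.05, with the median of each list as a bar. The 4 tested members and the other forebrain and isthmus genes have no filled point, while 7 of 8 neuron genes are filled.

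Hesx1, Gbx2 and Otx2 are also expressed in embryonic stem cells, epiblast or visceral endoderm, so markers of those cells are given beside them. Of 12 epiblast and pluripotency genes, all tested, Klf2 fell, 11 did not pass and 0 rose, with a median log2 change of -0.22, beside 0.870% of all tested genes that fell. An unadjusted limma p under 0.05 was found for 5 of the 12, beside 12.2% of all tested probe sets. All 5 had lower means with the agonist: Klf2, Nanog, Dnmt3b, Utf1 and Tdgf1. Klf4, Esrrb, Fgf4 and Fgf5 went the other way, with log2 changes of 0.087, 0.034, 0.082 and 0.11, and did not pass. The arrays without agonist also differed among themselves, and Nanog in retinoic acid replicate 3, at 72.9, lay below every agonist array. The groups did not overlap for Dnmt3b, at 55.4 ± 7.69 with the agonist and 80.0 ± 11.8 with retinoic acid alone (SD, n = 4 each, limma adjusted p = 0.0624). The same was found for 7.06% of all tested probe sets. The summed intensity of the 12 genes ranged from 1310 to 1539 with the agonist and from 1372 to 1907 with retinoic acid alone. Of 12 visceral endoderm genes 8 were tested and Foxa2 alone passed and rose, which is also a floor plate gene. Sox17 had an unadjusted p under 0.05, a log2 change of -0.28 and groups that did not overlap, but did not pass. Cer1, Afp and Amn in that list were too dim to be tested, and no gene of either list was at 0 on any array. Of 8 neuron genes 7 rose (Tubb3, Elavl3, Elavl4, Stmn2, Nefl, Nefm and Map2), beside 1.31% of all tested genes. The sum of the 8 ranged from 1954 to 2128 with the agonist and from 671 to 760 with retinoic acid alone. Of 5 tested neural progenitor genes Fabp7 rose and Pax6 fell, and Sox2 had an unadjusted p under 0.05 but did not pass. Sox2 (285 ± 26.9 with the agonist and 340.3 ± 44.9 with retinoic acid alone) and Nes (268 ± 5.09 and 262 ± 26.7 in the same order, all SD, n = 4) were bright in both groups, and Sox1 was too dim to be tested. Of 8 tested mesoderm and 6 tested neural crest genes 0 passed in limma and 0 had an unadjusted p or an exact permutation p under 0.05. The part of these marker differences in the member values was not tested.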

How the data were processed

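The authors deposited linear intensities, a single value for each probe set on each array. Their background correction, summary and scaling steps are not given in the sources used here. Instrument records, per the file headers, gave hybridisation day, chip lot and fluidics station. Day and station served as batches. All arrays without agonist and agonist replicate 5 were run on the first station, and agonist replicates 6, 7 and 8 on the second. Station and group were thus largely confounded for every gene. Each day used its own chip lot, so lot and day cannot be told apart. Groups came from sample titles. Median intensities were 21.6 to 22.6, and precision is limited by having 8 arrays. No detection calls were used.

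Of 45101 probe sets 64 controls were left out. Intensities were turned into log2(intensity + 16), a log2 scale set here, since the deposited intensities are linear. limma 3.58.1 (R 4.3.3; lmFit, eBayes with trend, two-sided) was run on 27022 probe sets above the 40th percentile and again on all 45037. Exact permutation tests compared 4 against 4 arrays. Each gene of the 12 context lists entered by the brightest probe set that names it alone, and 132 of 145 listed genes had one and 99 were tested. The model was also run on simulated data with independent arrays, no batches and changes larger than that of Gbx2. That run does not show how well changes as small as those of the members could be seen. Tables used pandas 2.3.3 in Python 3.11.15.

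The named genes were all member probe sets, list genes that passed and, where given, up to 3 of the brightest that did not, and the 3 genes most like each of the 3 brightest members. Genes named outside this rule (Ptch1, Cyp26a1, Six6, Foxd1, Spry1, Sp5, Pou3f4, Hoxb1, Hoxc4, Hoxc5, Hoxc6, Hoxc8, Nanog, Dnmt3b, Tdgf1, Klf4, Fgf4, Fgf5, Gbx1, Fgf8, Wnt1, Sox1, Cer1, Lefty1, Afp, Amn and the opposite-strand transcripts) were chosen after their values were seen. Members and lists were chosen with earlier results of these data known. Alternatives were 2 normalizations, adding 1 or 64, no filter or one at the 60th percentile, no trend, array weights, hybridisation day as a block or the second day alone, other ways to represent a gene by its probe sets, and leaving out each array. Fluidics station as a block, and the first station alone, were added after seeing the data. The replicate numbers of the groups do not overlap.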

Additional observations from a re-analysis of the deposited data

Results flagged for a closer look

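The 22 groups of 4 values (11 probe sets in each treatment) were examined for a sample far from the others, and 1 was found. Chance alone flags about 1 group in 20, so 1 of 22 is near what chance gives. En1 in agonist replicate 8 had an intensity of 10.95, while agonist replicates 5, 6 and 7 had 4.34, 5.29 and 4.71. All of these lie below the filter level of 15.1. The highest value with retinoic acid alone was 12.2, in replicate 4.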

How the results depend on the processing

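None of the 11 member probe sets passed under any setting run, with or without the filter, and Gbx2, Rax, En2, Emx2 and the bright Six3 probe set kept their sign in all, with Rax from 0.060 to 0.30 and that Six3 probe set from -0.12 to -0.022. No paired analysis was possible because the groups share no replicate number. The lowest adjusted p of Gbx2 over 20 settings was 0.144 (filter at the 60th percentile), the highest 0.811. Uncalled changes near 0 turned sign (log2). Otx2 was -0.030 with array weights, -0.13 on the second day alone and -0.059 to 0.14 with 1 array left out. En1 was 0.054 with 1 added, 0.017 with array weights and -0.094 to 0.11 with 1 array left out. Six3 1426638_at was 0.034 on the second day alone and -0.14 to 0.055 with 1 array left out, and 1426637_a_at -0.28 to 0.028. Hesx1 was 0.054 with station as a block or the first station alone and -0.076 to 0.0045 with 1 array left out, and Otx1 was 0.036 with station as a block or the first station alone. The calls over all probe sets were 506, against 264 without a trend, 266 on the second day, 138 with station as a block, 82 on the first station and 298 to 615 with 1 array left out (lowest without agonist replicate 6, and 324 without retinoic acid replicate 2). Without a filter they were 470, against 184, 264, 128, 90 and 293 to 583 in the same order. Context genes called were 16, against 10 with station as a block and 6 on the first station, and 12 to 18 with 1 array left out. Few arrays and low signal limit what can be seen of the dim members.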

Other observations

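The opposite-strand transcripts annotated at Otx2 and Emx2 were also too dim to be tested. Otx2os1 had 6.66 ± 5.02 with the agonist and 2.92 ± 2.24 with retinoic acid alone, and Emx2os 12.0 ± 7.31 and 10.7 ± 5.90 in the same order (SD, n = 4 each), with limma adjusted p of 0.703 and 0.969 without a filter. Six6, an eye field gene related to Six3, was too dim to be tested but had groups that did not overlap, with 10.2 to 13.8 with the agonist and 2.22 to 9.54 with retinoic acid alone (limma adjusted p = 0.427 without a filter). Vax2, a gene of the ventral eye, did not overlap either, at 39.4 ± 2.49 with the agonist and 31.9 ± 4.84 with retinoic acid alone (SD, n = 4 each, limma adjusted p = 0.458). Spry1, a feedback inhibitor of FGF signalling in the isthmus list, lay lower on every agonist array, at 39.4 ± 3.60 with the agonist and 52.5 ± 8.78 with retinoic acid alone (SD, n = 4 each, limma adjusted p = 0.240). Cyp26a1, the enzyme that breaks down retinoic acid, had 74.8 ± 3.45 with the agonist and 150.1 ± 14.0 with retinoic acid alone (SD, n = 4 each, limma adjusted p = 5.49e-06). Its part in the values of the members was not tested. Groups that do not overlap were found for 7.06% of all tested probe sets and 5.60% of all non-control ones, and all of these genes but Vax2 were named after their values were seen.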
